A study of Homo sapiens with 9 samples.

Results

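Receptors for interferon gamma and for other cytokines, 6 genes in all, were followed across 3 groups of arrays: IFNGR1, IFNGR2, IL2RG, IL10RA, CSF2RA and EPOR. They were 6 of the 927 genes that could be named on the arrays and 9 of the 1259 probe sets, since CSF2RA had 3 probe sets, EPOR had 2 and the other genes had 1 each. The genes had been picked with their log2 signals in the 3 groups already known, among them the higher signals of IL2RG and IL10RA after interferon gamma, so their own differences are given as a description with no p-value, and intervals and counts past the threshold describe the same signals. The arrays measured RNA of 2 human colon carcinoma lines, 3 arrays a group. The groups were T84 cells given 100 U/ml interferon gamma for 24 hours, T84 cells left untreated at passage 68, and untreated Caco-2 cells at passage 37. Both untreated lines were at about 90% confluence in 6-well plates, and the labels do not give passage or confluence for the treated cells. Each line is 1 established line, so a difference between untreated T84 and Caco-2 is a difference between those 2 lines. Treated T84 and Caco-2 differ in both line and interferon gamma, whose parts in that comparison cannot be told apart. The arrays were made for glycosylation genes, and the series asked which of these could account for a sialylated CD44 epitope in interferon-treated T84 cells. Replicates carry numbers, but no label says that they were grown as separate cultures, and each p-value below therefore covers only array-to-array spread that may be technical. In such bulk RNA, fewer cells of a kind and less RNA per cell cannot be told apart.

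Interferon gamma binds a receptor built from the ligand-binding chain IFNGR1 and the signalling chain IFNGR2, and kinases bound to these chains pass the signal on to the nucleus. IL10RA is the ligand-binding chain for interleukin 10 and, like both interferon gamma chains, belongs to the class II cytokine receptors. IL2RG is the common gamma chain, which the receptors for interleukins 2, 4, 7, 9, 15 and 21 share. CSF2RA binds GM-CSF and pairs with the beta common chain CSF2RB, while EPOR is the homodimeric receptor of erythropoietin. Nearly all cell types carry the interferon gamma receptor, whereas IL2RG, IL10RA and CSF2RA are known chiefly from blood cells and EPOR from red cell precursors.

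Promoter sequence is shown for the 2 genes that were higher after interferon gamma, for the 2 that were higher in Caco-2, and for IFNGR2 as a receptor present in every group. The RefSeq promoter windows (GRCh38.p14) matched all 6 genes. Each line gives the 250 bases before the annotated start, 5′ to 3′ along the gene, and capitals mark the motif matches described after the sequences.
IL2RG, chrX:71111578-71111827, minus strand: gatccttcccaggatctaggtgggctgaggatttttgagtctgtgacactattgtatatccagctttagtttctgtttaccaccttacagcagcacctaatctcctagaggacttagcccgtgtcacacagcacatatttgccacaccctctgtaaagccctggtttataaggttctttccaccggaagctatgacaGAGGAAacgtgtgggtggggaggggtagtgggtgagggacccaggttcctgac
IL10RA, chr11:117989695-117989944, plus strand: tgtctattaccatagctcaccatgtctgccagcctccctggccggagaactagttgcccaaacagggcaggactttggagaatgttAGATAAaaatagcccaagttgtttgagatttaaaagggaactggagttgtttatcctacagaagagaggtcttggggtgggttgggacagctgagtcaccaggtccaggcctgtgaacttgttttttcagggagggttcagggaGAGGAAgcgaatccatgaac
CSF2RA, chrX:1268564-1268813, plus strand: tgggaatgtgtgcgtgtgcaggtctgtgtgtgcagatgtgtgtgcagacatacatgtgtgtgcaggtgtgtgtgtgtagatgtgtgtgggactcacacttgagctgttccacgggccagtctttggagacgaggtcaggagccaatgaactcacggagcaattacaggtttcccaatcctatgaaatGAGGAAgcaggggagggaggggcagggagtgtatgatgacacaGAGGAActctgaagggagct
EPOR, chr19:11384315-11384564, minus strand: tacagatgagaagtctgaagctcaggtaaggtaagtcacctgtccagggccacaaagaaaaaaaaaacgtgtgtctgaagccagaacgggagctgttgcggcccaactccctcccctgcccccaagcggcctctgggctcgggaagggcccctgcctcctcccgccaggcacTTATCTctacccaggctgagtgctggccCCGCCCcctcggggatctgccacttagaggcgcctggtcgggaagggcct
IFNGR2, chr21:33403163-33403412, plus strand: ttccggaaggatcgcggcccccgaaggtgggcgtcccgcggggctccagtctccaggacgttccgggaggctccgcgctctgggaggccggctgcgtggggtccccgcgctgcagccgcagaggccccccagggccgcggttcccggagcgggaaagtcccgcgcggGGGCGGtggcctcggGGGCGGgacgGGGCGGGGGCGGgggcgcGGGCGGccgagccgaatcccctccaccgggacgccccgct
The motifs given here were searched on both strands: the interferon-stimulated element (GAAA, any 2 bases, GAAA), the core GAGGAA of the blood cell factor PU.1, the GATA factor elements AGATAA and TGATAA, and the Sp1 element GGGCGG. No window of the 6 genes held the interferon-stimulated element, which 3.02% of 35116 human windows of the same length hold. GAGGAA began 53 bases before the start of IL2RG, 20 bases before that of IL10RA, and 63 and 20 bases before that of CSF2RA, all on the gene's strand. It stands in 23.6% of all windows. EPOR instead held AGATAA on the opposite strand, at base -78, and GGGCGG on the opposite strand at base -50, motifs found in 9.17% and 42.6% of windows. IFNGR2 held GGGCGG 5 times between bases -83 and -40, 2 of them back to back, and no GAGGAA. IL10RA also held AGATAA at base -164, and TGATAA (6.66% of windows) was in none. No match overlapped another. A second window of IFNGR1 held GAGGAA at base -184 and GGGCGG at base -83, both on the opposite strand, and its first window held none. CSF2RA lies in the region shared by the X and Y chromosomes, and both copies have the same sequence here. Such matches describe letters in these windows only.

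Whether a receptor stood above background was judged against genes that these epithelial lines were taken to lack, which was not tested. The level used was the 95th percentile of 23 probe sets for leukocyte, fibroblast and endothelial markers. It came to a log2 signal of 6.75 for treated T84, 6.71 for untreated T84 and 7.03 for Caco-2. Probe sets differ in brightness for equal amounts of RNA, so this is a guide and gives no order among genes. IFNGR1, IFNGR2 and IL2RG stood above it in all 3 groups, and their signals exceeded those of all 23 marker probe sets. Probe set 2 of EPOR stood above it in all 3 groups and probe set 1 in Caco-2 only. IL10RA stood below it in every group, as did all 3 CSF2RA probe sets. In all, 4 of the 9 probe sets were above it in treated T84, as were 4 in untreated T84 and 5 in Caco-2. Probe set 1 of EPOR came close to it in T84, at 6.67 against 6.75 in treated and 6.63 against 6.71 in untreated T84. Probe set 2 of CSF2RA came close in Caco-2, at 6.94 against 7.03, and counts as above when leukocyte markers alone set the level (6.76). Of 6 measured fibroblast and endothelial markers, PECAM1, PDGFRB and LUM were lower in both T84 groups than in Caco-2, by log2 fold changes from -0.72 to -0.46 (limma adjusted p at or below 0.0103), and none passed in treated over untreated T84. The markers were thus not all at the same level in both lines. PECAM1, at 7.19, was the brightest of the 23 in Caco-2, where the level is 6.76 with leukocyte markers alone.

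**Figure D1:**
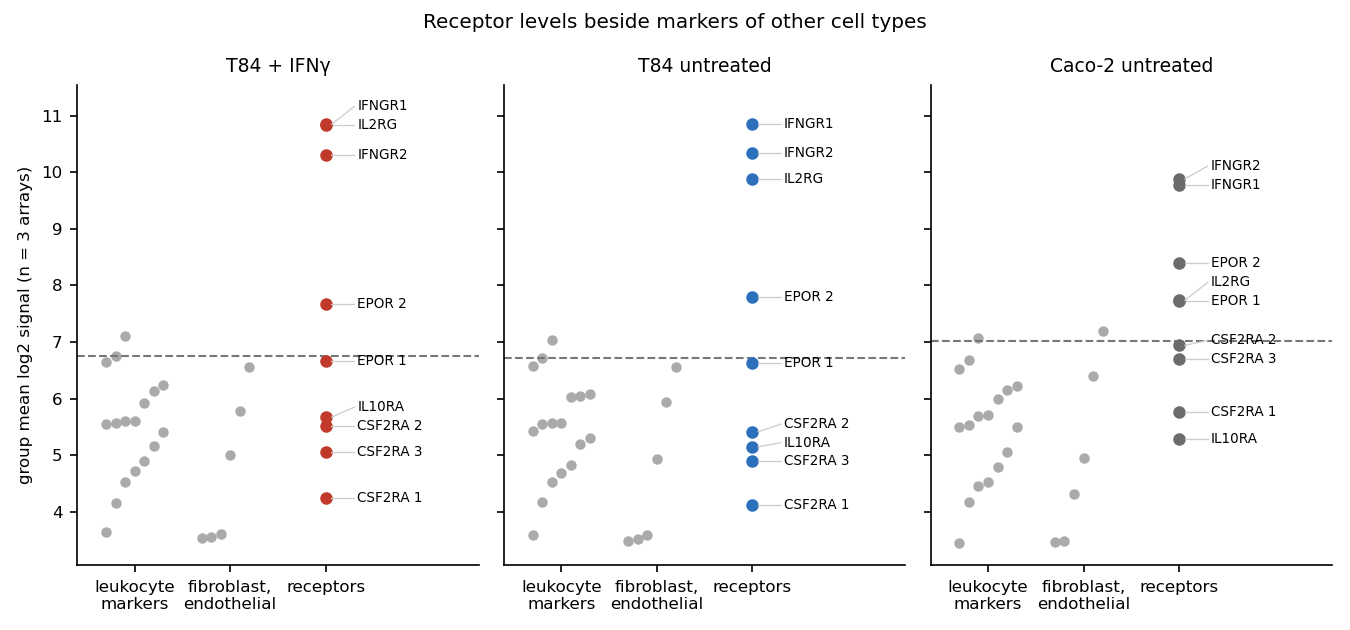
Group mean log2 signal (y axis, n = 3 arrays) of 17 leukocyte and 6 fibroblast and endothelial marker probe sets (grey) and of the 9 receptor probe sets (coloured) in each group, with a dashed line at the 95th percentile of the markers. IFNGR1, IFNGR2 and IL2RG lie above every marker in each group, while IL10RA and the CSF2RA probe sets lie among the markers in T84.

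The interferon gamma receptor chains were present in both lines, and their levels in T84 after 24 hours of the cytokine overlapped with those in untreated T84. IFNGR1 had log2 signals of 11.25, 10.74 and 10.55 in treated T84, against 11.05, 10.76 and 10.77 in untreated T84 and 9.14, 10.14 and 10.06 in Caco-2. The T84 groups overlapped, and all 6 T84 arrays lay above all 3 Caco-2 arrays. Its log2 fold change was -0.01 ± 0.28 (SE; 95% confidence interval -0.65 to 0.63) in treated over untreated T84. That interval is wide and reaches a level 1.57-fold lower. IFNGR1 was higher than in Caco-2 by 1.07 ± 0.28 log2 units in treated T84 and by 1.08 ± 0.28 in untreated T84, about 2.1-fold each.

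IFNGR2 had log2 signals of 10.37, 10.27 and 10.27 in treated T84, against 10.27, 10.39 and 10.37 in untreated T84 and 10.00, 9.85 and 9.80 in Caco-2. As for its partner, the T84 groups overlapped and all T84 arrays lay above all Caco-2 arrays. Its spread was small, and the log2 fold change of treated over untreated T84 was -0.04 ± 0.06 (SE; 95% confidence interval -0.18 to 0.11). The excess over Caco-2 was 1.34-fold for treated T84 (95% confidence interval 1.21 to 1.48) and 1.38-fold for untreated T84 (1.24 to 1.52). For scale, the cells did respond: 10 of 11 measured interferon gamma response genes rose in treated over untreated T84 and 1, IFITM1, did not pass. The chemokine gene CXCL10 rose by 5.11 ± 0.10 log2 units (SE; limma adjusted p = 1.91e-08) and CD74, which encodes the class II invariant chain, by 3.54 ± 0.08 (limma adjusted p = 2.55e-08). The median of these 11 was 3.17, beside -0.01 over all probe sets, though the list was drawn up with such rises already known.

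**Figure D2:**
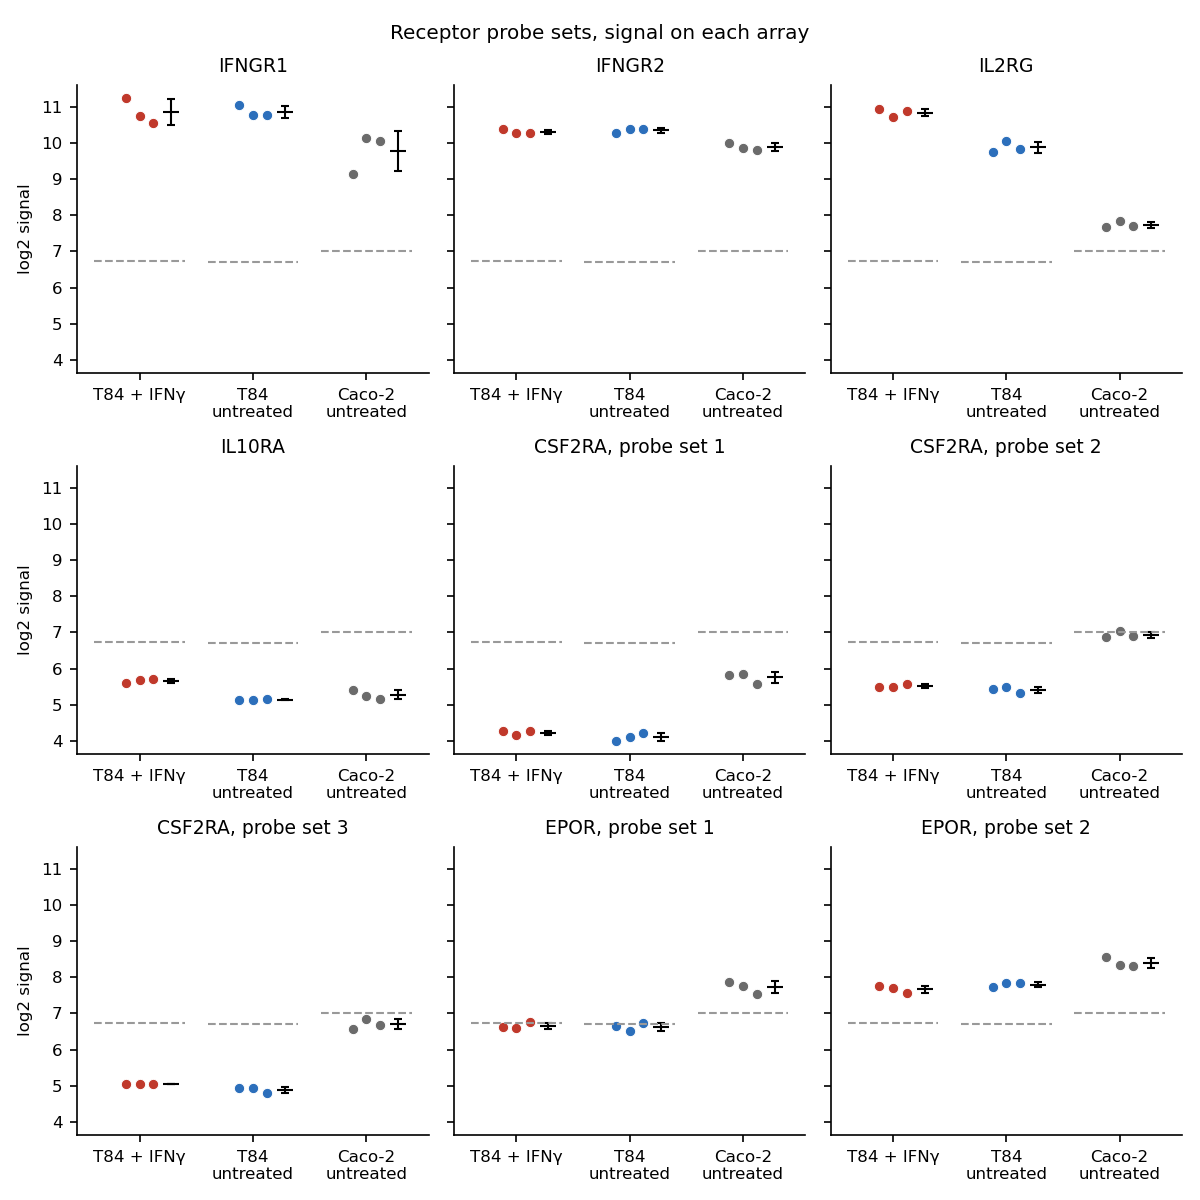
Log2 signal of each receptor probe set (y axis) on every array, with the group mean and SD (black, n = 3) and the background level of each group (dashed). IL2RG steps down across the 3 groups, and the CSF2RA and EPOR probe sets are highest in Caco-2. For both interferon gamma receptor chains the T84 groups overlap, with a wide spread for IFNGR1.

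IL2RG, the common gamma chain, was the receptor with the largest differences. Its log2 signals were 10.92, 10.72 and 10.87 in treated T84, against 9.75, 10.04 and 9.83 in untreated T84 and 7.69, 7.84 and 7.69 in Caco-2. No 2 groups overlapped. The means were 10.83 ± 0.11 for treated T84, 9.87 ± 0.15 for untreated T84 and 7.74 ± 0.09 for Caco-2 (SD, n = 3 each), a fold of 1.95 for treated over untreated T84 (95% confidence interval 1.69 to 2.25). Its level over that of Caco-2 was 8.56-fold in treated T84 (7.42 to 9.87), against 4.39-fold in untreated T84 (3.81 to 5.06). Its probe set is shared among transcripts of the gene.

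IL10RA was higher in treated T84 than in both other groups, at a dim signal throughout. Its log2 signals were 5.61, 5.68 and 5.72 in treated T84, against 5.15, 5.13 and 5.17 in untreated T84 and 5.42, 5.25 and 5.17 in Caco-2. Treated T84 overlapped with neither group, while untreated T84 and Caco-2 overlapped. The difference was 1.44-fold over untreated T84 (95% confidence interval 1.29 to 1.60) and 1.31-fold over Caco-2 (1.18 to 1.46). Untreated T84 over Caco-2 was at -0.13 ± 0.07 log2 units (SE), a value that turned to 0.06 when arrays were centred on ribosomal protein genes. Even in treated T84 its mean exceeded only 15 of the 23 marker probe sets. Near background a log2 difference can understate a change in RNA, and whether this signal comes from IL10RA RNA was not tested.

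These genes are best known from leukocytes, and leukocyte markers on the same arrays were near the same level in all groups. Of 14 measured leukocyte marker genes none passed the test in treated over untreated T84, with a median log2 fold change of 0.05. The log2 of their linear signals summed over 17 probe sets was also taken, a sum in which the brightest weigh most. Across arrays it ran from 9.84 to 9.89 in treated T84, from 9.77 to 9.86 in untreated T84 and from 9.82 to 9.86 in Caco-2. Signals of this kind have no true 0, and the pan-leukocyte gene PTPRC and the T cell CD3 genes were not analysed here. Against Caco-2, CD22 was higher and NCAM1 lower in both T84 groups. Of 3 measured colon epithelial markers, LGALS4 had a log2 signal of 12.47 in treated T84, against 13.01 in untreated T84 and 6.91 in Caco-2, the last below the background level there. MUC13 was at 12.38, 11.98 and 9.92 in the same order, above it in every group. MUC2, the goblet cell mucin gene, was at 7.20, 7.03 and 6.63, below it in Caco-2.

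CSF2RA, the GM-CSF receptor alpha chain, was lower in T84 than in Caco-2 at all 3 probe sets, none of which stood above the background level used. In Caco-2, probe set 2 counts as above background when leukocyte markers alone set the level (6.76). Probe set 2, the brightest, gave 5.48, 5.50 and 5.58 in treated T84, against 5.43, 5.49 and 5.32 in untreated T84 and 6.87, 7.04 and 6.91 in Caco-2. Probe set 3 gave 5.06, 5.05 and 5.05 in treated T84, against 4.93, 4.94 and 4.81 in untreated T84 and 6.57, 6.84 and 6.69 in Caco-2. Both can cross-hybridise with related sequences by their suffix, while probe set 1, shared only among CSF2RA transcripts, gave 4.27, 4.17 and 4.27 in treated T84, against 4.01, 4.12 and 4.23 in untreated T84 and 5.83, 5.86 and 5.58 in Caco-2. All T84 arrays lay below all Caco-2 arrays at each probe set, so the 3 gave 1 picture. The log2 fold changes ran from -1.65 ± 0.07 to -1.42 ± 0.06 in treated T84 over Caco-2 and from -1.81 ± 0.07 to -1.52 ± 0.06 in untreated T84 over Caco-2 (SE). In treated over untreated T84 they ran from 0.11 ± 0.06 to 0.16 ± 0.07, and the T84 groups did not overlap at probe set 3.

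EPOR, the erythropoietin receptor gene, was also lower in T84 than in Caco-2. Probe set 1, specific to its transcript, gave log2 signals of 6.64, 6.60 and 6.76 in treated T84, against 6.66, 6.51 and 6.73 in untreated T84 and 7.87, 7.77 and 7.54 in Caco-2. Probe set 2, whose suffix marks probes common to several transcripts, possibly of related genes, gave 7.75, 7.70 and 7.56 in treated T84, against 7.72, 7.84 and 7.83 in untreated T84 and 8.56, 8.33 and 8.32 in Caco-2. At both, every T84 array lay below every Caco-2 array and the T84 groups overlapped. At probe set 1, EPOR was 2.08-fold lower in treated T84 (95% confidence interval 1.79 to 2.42) and 2.13-fold lower in untreated T84 (1.83 to 2.48). Probe set 1 was not above background in T84, so these folds compare Caco-2 with signals at the background level. At probe set 2 EPOR was lower by 1.67-fold in treated T84 (1.46 to 1.90) and 1.52-fold in untreated T84 (1.34 to 1.73). The only measured marker of red cells and platelets was PF4, which was higher in treated T84 (0.96 ± 0.16 log2 units, SE) and in untreated T84 (1.09 ± 0.16) than in Caco-2, the opposite direction to EPOR.

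**Figure D3:**
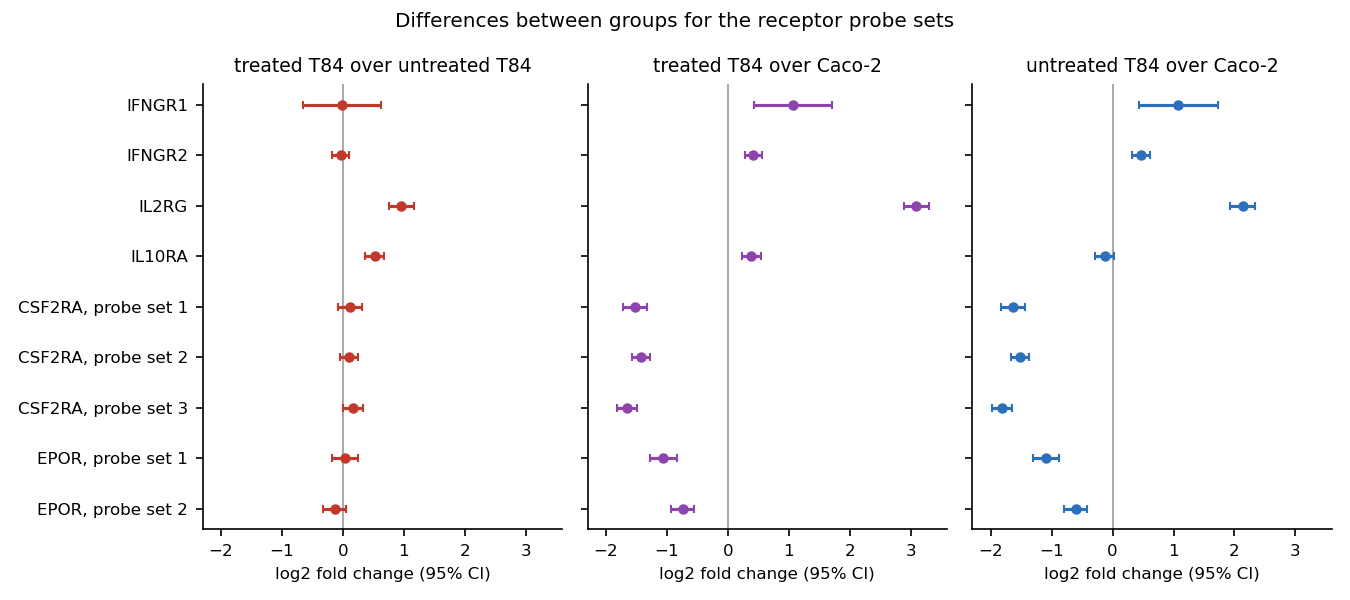
Log2 fold change of each receptor probe set with its 95% confidence interval in the 3 comparisons. In treated over untreated T84 the values of IL2RG (0.96) and IL10RA (0.52) are the highest, while against Caco-2 the IFNGR1, IFNGR2 and IL2RG values lie above 0 and the CSF2RA and EPOR values below it.

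Over the 9 receptor probe sets, 2 passed the threshold in treated over untreated T84 (adjusted p below 0.05 over 1259 probe sets), both higher. Over all probe sets 10.2% passed, 4.37% being higher and 5.8% lower. The groups did not overlap at 3 of the 9, all higher, beside 27.5% of all probe sets (9.61% higher and 17.9% lower). In treated T84 over Caco-2 all 9 passed, 4 higher and 5 lower, beside 45.6% of all probe sets (19.4% higher and 26.2% lower), and in untreated T84 over Caco-2 8 passed, 3 higher and 5 lower, beside 43.7% (19.5% higher and 24.2% lower). In treated T84 over Caco-2 the groups stood apart at all 9, beside 53.5% of all probe sets (24.8% higher and 28.8% lower), and in untreated T84 over Caco-2 at 8 of them, beside 49.6% (23.7% higher and 25.8% lower). These comparisons share groups with each other, and the genes were picked from the same signals, so nothing is read from the counts. Centring arrays on ribosomal protein genes raised the median log2 fold change of all probe sets against Caco-2 from 0.02 to 0.28 in treated and to 0.21 in untreated T84. It changed the calls over all probe sets from 244 higher and 330 lower to 760 and 223 in treated T84 over Caco-2, from 245 and 305 to 601 and 223 in untreated T84 over Caco-2, and from 55 and 73 to 56 and 47 in treated over untreated T84. Every receptor value past the threshold kept its direction under it.

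IFNGR1 had the widest spread of the receptors. Its pooled SD within groups was 0.39 log2 units, larger than that of 96% of all probe sets (median 0.10), against 0.08 for IFNGR2. On Caco-2 replicate 1 it was 0.64 below its group mean, on treated T84 replicate 3 0.30 below and on treated T84 replicate 1 0.40 above. The 3 arrays treated T84 replicate 3, untreated T84 replicate 3 and Caco-2 replicate 1 deviated together from their groups over all probe sets, along a direction that held 70.9% of the variance within groups. For IFNGR1 this direction held 77% of its own variance within groups, with like shares for CSF2RA probe set 3 (74.3%) and IL10RA (73.6%). The share was 41.5% for IFNGR2 and 7.4% for IL2RG, the lowest of the receptor probe sets. The part of this direction in the IFNGR1 values was not tested. Without Caco-2 replicate 1 the IFNGR1 log2 fold change over Caco-2 was 0.75 in treated and 0.76 in untreated T84. Without the 3 arrays, a check chosen after seeing the data, it was 0.90 in treated and 0.81 in untreated T84 over Caco-2 and 0.09 in treated over untreated T84. IFNGR2 carried the same value on 3 of its 9 arrays, as 44.4% of probe sets did on at least 2 arrays.

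**Figure D4:**
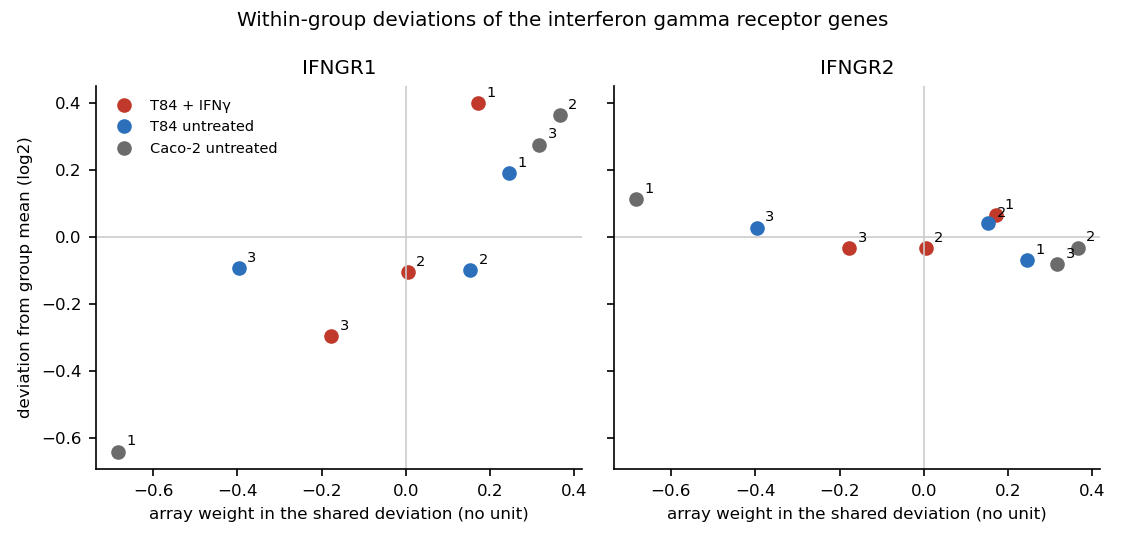
Deviation of IFNGR1 and IFNGR2 from their group mean on each array (y axis, log2) against the weight of that array in the deviation shared over all probe sets (x axis, no unit), with replicate numbers beside the points. IFNGR1 is lowest on Caco-2 replicate 1, which has the most negative weight, and IFNGR2 stays within 0.12 of its group means.

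Other receptor chains of the same families were measured in part, and they were tested in the fit over all probe sets. Of 8 class II receptor genes listed, IFNAR1 and IFNAR2, the chains of the type I interferon receptor, were measured. Neither passed in treated over untreated T84, with log2 fold changes of 0.02 ± 0.28 and 0.28 ± 0.09 (SE; limma adjusted p = 0.992 and 0.095). The IFNAR2 value passed under 4 of 20 alternatives. Both were higher in T84 than in Caco-2, IFNAR1 by 1.34 ± 0.28 in treated T84 and 1.33 ± 0.28 in untreated T84, and IFNAR2 by 0.99 ± 0.09 and 0.71 ± 0.09 (limma adjusted p at or below 0.0048). A second, dimmer IFNAR2 probe set passed in no comparison, with values between -0.06 and 0.15, so the IFNAR2 probe sets disagreed against Caco-2. IFNAR2 was above background in all 3 groups and IFNAR1 in both T84 groups.

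Among 5 measured partner chains of IL2RG, only IL4R, which pairs with it for interleukin 4, was above background, and it was so in every group. IL4R had a log2 signal of 9.30 ± 0.09 in treated T84, against 9.39 ± 0.06 in untreated T84 and 8.08 ± 0.10 in Caco-2 (SD, n = 3). It was higher than in Caco-2 by 1.22 ± 0.07 log2 units in treated and 1.31 ± 0.07 in untreated T84 (SE; limma adjusted p = 1.49e-06 and 1.14e-06), as IL2RG was, but treated over untreated T84 was at -0.09 ± 0.07 (limma adjusted p = 0.588). IL9R was higher than in Caco-2 by 0.35 ± 0.06 in treated and 0.36 ± 0.06 in untreated T84 (limma adjusted p = 0.00121 and 0.00123), below the background level. IL2RA, IL2RB and IL7R passed in no comparison, with log2 fold changes between -0.07 and 0.15. So 0 of 5 passed in treated over untreated T84, and 2 of 5 were higher than in Caco-2 in each T84 group, with medians of 0.13 in treated and 0.11 in untreated T84 (0.02 over all probe sets).

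CSF2RB, the signalling chain that CSF2RA needs, passed in no comparison. It had log2 signals of 6.98 ± 0.01 in treated T84, against 6.98 ± 0.02 in untreated T84 and 6.90 ± 0.10 in Caco-2 (SD, n = 3). By a small margin it stood above background in T84 alone, a call that rests on the higher background level of Caco-2 (7.03). When leukocyte markers alone set that level (6.76 for Caco-2), CSF2RB counts as above it in Caco-2 too. It was dimmer than the brightest marker of every group, whose lowest value was 7.04. Thus CSF2RA was lower in T84 while its partner differed by 0.08 ± 0.05 in treated and 0.09 ± 0.05 in untreated T84 over Caco-2 (SE; limma adjusted p = 0.249 and 0.242). IL3RA, the interleukin 3 receptor alpha chain of the same family, was higher in treated T84 by 0.37 ± 0.08 over untreated T84 (limma adjusted p = 0.0254) and by 0.38 ± 0.08 over Caco-2 (0.00538), below the background level. The first call was lost without treated T84 replicate 1 or 2 or any one untreated T84 replicate (adjusted p from 0.0701 to 0.098). IL5RA, the interleukin 5 receptor alpha chain, did not pass at its brightest probe set, with values between 0.05 and 0.11, though the dimmest of its 3 was higher than in Caco-2 by 0.15 ± 0.04 in treated and 0.11 ± 0.04 in untreated T84 (limma adjusted p = 0.0124 and 0.0491).

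Of 10 ligands listed for these receptors, 8 were measured, and all 8 were below background in every group. In treated over untreated T84, 1 of the 8 was higher, the interleukin 7 gene IL7, and none was lower. IL7 had log2 signals of 4.51, 4.15 and 3.65 in treated T84, against 3.42, 3.29 and 3.24 in untreated T84 and 3.34, 3.36 and 3.29 in Caco-2. Its log2 fold change was 0.79 ± 0.18 over untreated T84 (SE; limma adjusted p = 0.0294) and 0.77 ± 0.18 over Caco-2 (0.00807). The first was lost without treated T84 replicate 2, any one untreated T84 replicate or Caco-2 replicate 2 or 3 (adjusted p from 0.0521 to 0.11). EPO, the ligand of EPOR, was lower than in Caco-2, with a log2 fold change of -0.40 ± 0.11 in treated and -0.47 ± 0.11 in untreated T84 (limma adjusted p = 0.0149 and 0.00713), both lost with ribosomal centring. IL9, the ligand of IL9R, was at -1.35 ± 0.08 and -1.33 ± 0.08 over Caco-2 (limma adjusted p = 1.73e-06 and 2.58e-06). IFNG itself was at 4.73 ± 0.02 in treated T84, against 4.71 ± 0.03 in untreated T84 and 4.68 ± 0.08 in Caco-2 (SD, n = 3), and passed in no comparison. IL2 and IL4 did not pass either, with values between -0.07 and 0.17. IL10 passed in treated T84 over Caco-2 alone (0.16 ± 0.06, limma adjusted p = 0.0492), a call lost when any array but Caco-2 replicate 1 was left out. CSF2, which encodes GM-CSF, passed in untreated T84 over Caco-2 alone (0.13 ± 0.05, limma adjusted p = 0.0457), a call lost without any of 7 arrays, the others being untreated T84 replicate 1 and Caco-2 replicate 1.

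**Figure D5:**
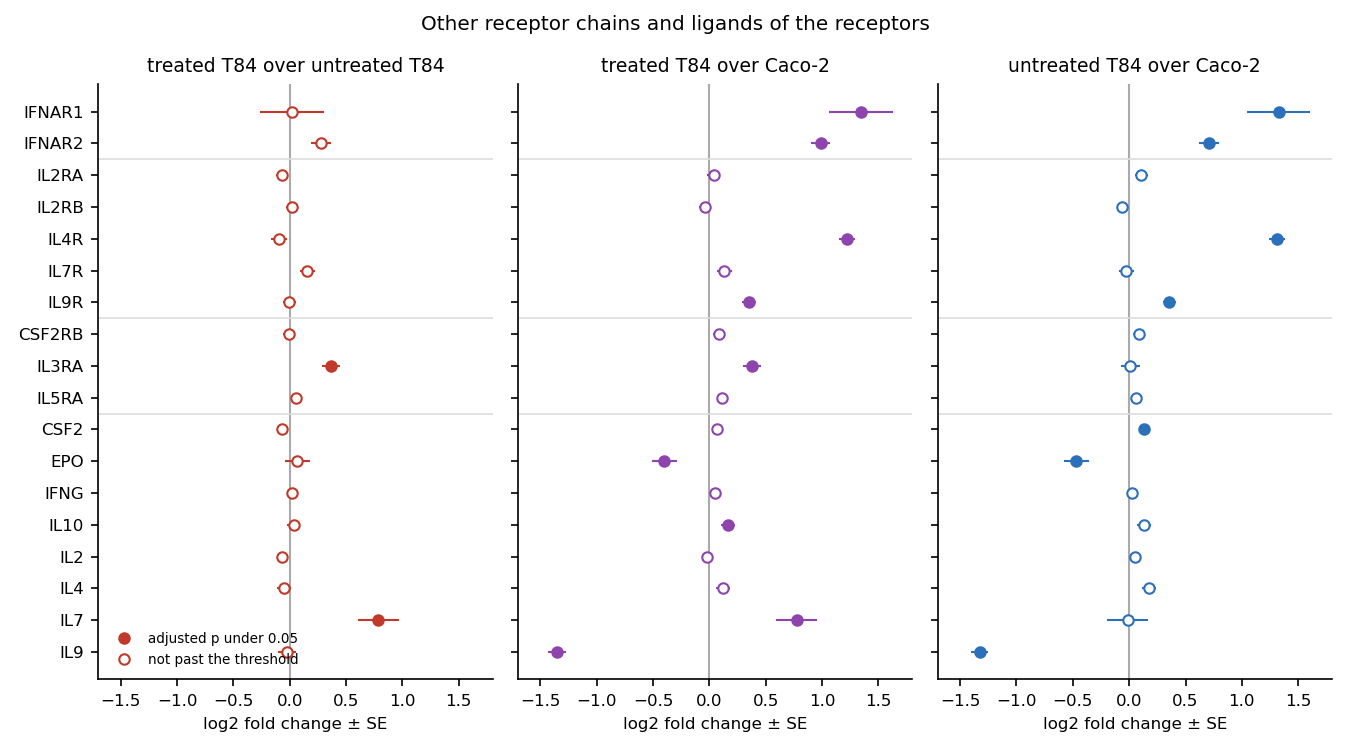
Log2 fold change with its SE for other class II receptor genes, partner chains of IL2RG, beta common family chains and ligands (top to bottom, parted by grey lines) in the 3 comparisons, with filled points past the threshold. IL3RA and IL7 are the filled points in treated over untreated T84, and IFNAR1, IFNAR2 and IL4R lie to the right in both comparisons with Caco-2.

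Few receptors of more distant families passed the test after interferon gamma. Of 9 measured receptors of the interleukin 6 and 12 families none passed in treated over untreated T84 at its brightest probe set. A second probe set of IL12RB1, which encodes the shared chain of the interleukin 12 and 23 receptors, rose by 0.91 ± 0.10 log2 units in treated over untreated T84 (SE; limma adjusted p = 0.000627), with means of 7.02 in treated and 6.11 in untreated T84. The brighter IL12RB1 probe set was at 0.08 ± 0.06 (limma adjusted p = 0.6), so its probe sets disagreed, and the second is named here after its values were seen. Over Caco-2 this second probe set was at 1.16 ± 0.10 in treated T84 (SE, limma adjusted p = 1.88e-05). In untreated T84 over Caco-2 it was at 0.25 ± 0.10 (limma adjusted p = 0.0787), and the brighter probe set passed in neither T84 group. CNTFR, the receptor gene of ciliary neurotrophic factor, was lower than in Caco-2, with a log2 fold change of -0.14 ± 0.05 in treated T84 and -0.25 ± 0.05 in untreated T84 (SE; limma adjusted p = 0.0441 and 0.00336), and the G-CSF receptor gene CSF3R was at -0.23 ± 0.08 in treated T84 (0.0466). All 3 treated T84 arrays carried 1 and the same CNTFR value. The CNTFR call in treated T84 was lost without any array but Caco-2 replicate 2. This CSF3R call, at its brightest probe set, was lost without any array but treated T84 replicate 2 or Caco-2 replicate 2. A second, dimmer CSF3R probe set passed in both T84 groups over Caco-2. Its values were -0.15 ± 0.05 in treated and -0.21 ± 0.05 in untreated T84 (SE, limma adjusted p = 0.0291 and 0.00561). Of 8 other cytokine receptors none passed with interferon gamma. Against Caco-2, the TGF-beta receptor gene TGFBR2 was higher by 1.02 ± 0.09 in treated and 1.25 ± 0.09 in untreated T84, TGFBR3 lower at -2.56 ± 0.36 and -2.33 ± 0.36, and TGFBR1 lower at -0.45 ± 0.09 and -0.51 ± 0.09 (limma adjusted p at or below 0.00283). CSF1R was lower in untreated T84 (-0.35 ± 0.09, limma adjusted p = 0.0107) and IL1R2 higher (0.21 ± 0.07, 0.0369), the IL1R2 call being lost without any array but untreated T84 replicate 2 or Caco-2 replicate 1. With ribosomal centring the calls of CNTFR in untreated T84 (limma adjusted p = 0.488), TGFBR1 in treated T84 (0.165) and CSF1R in untreated T84 (0.137), all over Caco-2, were lost.

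The probe sets most like each receptor over the 9 arrays were found by the root mean square difference of their log2 signals after each was centred on its own mean, among 1034 other named probe sets. For IFNGR1 these were MET, a receptor tyrosine kinase gene, at 0.17 and GALNT5, which starts mucin-type O-glycans, at 0.19, beside 0.60 for the variation of IFNGR1 itself around its mean. IFNGR2 was nearest to COG7, of the Golgi tethering complex COG, (0.04) and IL9R (0.05), with a variation of its own of 0.22. IL2RG varied most, by 1.30, and its nearest were the chemokine gene CXCL3 (0.30) and the galectin gene LGALS9 (0.30). IL10RA was nearest to the integrin-linked kinase gene ILK and the repressor gene HES7 (0.07 and 0.08, own variation 0.23). CSF2RA was nearest to IL9 and the asialoglycoprotein receptor gene ASGR1 (0.11 and 0.15, own variation 0.70), and EPOR to COG2, of the same COG complex, and the splicing factor gene PRPF8 (0.06 each, own variation 0.33). The 9 arrays fall into 3 groups of 2 lines, and many probe sets differ between the lines, as the shares above show.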

How the data were processed

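The 9 single-colour arrays fell into 3 groups of 3 by their labels. Per the labels' protocols, RNA was extracted with Trizol and biotinylated cRNA was made by the Affymetrix protocol. The authors deposited RMA-normalized log2 signals, 1 per probe set and array, per the submitters' processing notes, and these were used unaltered. The sources used here give neither the RMA version nor a genome build or filter.

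RefSeq identifiers, matched without versions, gave 1 symbol to 1043 of 1259 probe sets (927 genes). The other 216 stayed in every test. Group means over all 9 arrays were modelled in limma 3.58.1 (R 4.3.3), with moderation (6 residual and 2.12 prior degrees of freedom), two-sided p-values, and Benjamini-Hochberg adjustment over 1259 probe sets at 0.05. The receptors and gene lists were chosen with earlier results of these data known. Where a listed gene had several probe sets, the brightest on average stood for it. All receptor probe sets are given. Named beside them are all members of 4 partner and ligand lists, up to 6 members of other lists past the threshold by adjusted p, and the 2 probe sets most like each receptor. The fit was tested on simulated data. A searched motif and a listed gene are not reported here.

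Alternatives changed the scaling, the moderation, array weights, a replicate block, a filter on dim probe sets, the threshold, the background level and which arrays were fitted, single arrays left out included. The array number limits the precision. Tables were handled with pandas 2.3.3 and figures drawn with matplotlib 3.10.9 in Python 3.11.15.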

Additional observations from a re-analysis of the deposited data

How the results depend on the processing

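As a description of the signals the 6 receptors were picked on, of 19 of their values past the threshold 17 stayed past it under all 20 alternatives and none changed sign. The other 2, IFNGR1 in each T84 group over Caco-2, were lost only at an adjusted p below 0.01, and IL10RA in untreated T84 over Caco-2 passed only without Caco-2 replicate 3. In treated over untreated T84, 128 probe sets passed, against 231 with array weights and 79 at an adjusted p below 0.01. In treated T84 over Caco-2, 574 passed, against 983 with ribosomal protein centring. That centring also turned the treated T84 over Caco-2 values of IL2RB to 0.21, IL2 to 0.23, CNTFR to 0.11 and CSF3R to 0.030. Under it IL2RA, IL2RB, IL7R, IL5RA, CSF2RB, IFNG, IL2, IL4 and CSF2 passed in treated T84 over Caco-2, higher. Leaving out single arrays gave 86 to 178 calls in treated over untreated T84, 521 to 640 in treated T84 over Caco-2 and 480 to 600 in untreated T84 over Caco-2. Over the 3 groups, same-numbered arrays did not as a rule deviate together (r from -0.643 to 0.561, 3 of 9 pairs over 0.1). Only 2 of 9 arrays were nearest to their own number, so the numbers were not used as pairs. Between treated and untreated T84, however, r was 0.386 for replicate 1, -0.0237 for replicate 2 and 0.561 for replicate 3. With the replicate block 109, 534 and 499 probe sets passed, and no call of the 6 receptors changed. Among the other genes named, the block ended the calls of CNTFR, CSF3R and IL10 in treated T84 over Caco-2 and of CSF2 in untreated T84 over Caco-2. Of 59 calls of other genes, 47 held under every alternative. With the 25th percentile of all probe sets as the background level, 7, 6 and 8 of the 9 receptor probe sets stood above it in treated T84, untreated T84 and Caco-2. A dim signal limits what can be said of IL10RA, CSF2RA, EPOR probe set 1 in T84 and the ligands.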
